A study of Neurospora crassa with 6 samples.

Results

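In germinating *Neurospora crassa* conidiospores, 33 of 9730 measured genes had transcripts at least 4-fold higher in dual stress (DS, 45°C with the glucose analog 2-deoxyglucose, 2-DG) than in the 30°C control and at least 2-fold higher than in heat shock alone (HS, 45°C), in both wt and the os2 MAP kinase mutant. They were chosen from the deposited FPKM values, fragments mapped, corrected for transcript length and library size, with 1 added to each value. The rule required a log2 ratio of at least 2 for DS over the 30°C control (DS/30) and of at least 1 for DS over HS (DS/HS) in each strain. Those 4 ratios therefore describe how the genes were picked and are not findings about them. The 33 genes include Hsp30, the protein disaggregases Hsp98 and Hsp78, the Hsp70 partners Sis1 and Fes1, and a ubiquitin ligase, while 22 of the 33 carry no name in the sources used here. With the columns scaled to equal totals 19 of the 33 passed the rule, and Sis1 did not.

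Heat shock unfolds proteins, and cells answer by making chaperones. Small heat shock proteins such as Hsp30 hold unfolded proteins in a soluble state, Hsp70 with its J-protein and nucleotide exchange partners refolds them, and disaggregases of the Hsp104/ClpB family pull aggregates apart. Proteins that cannot be refolded are tagged with ubiquitin and degraded by the proteasome. 2-DG is taken up and phosphorylated like glucose but is not carried through glycolysis, so it mimics glucose starvation. Os2 is the MAP kinase of the osmotic stress pathway, the counterpart of yeast Hog1 and mammalian p38.

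The wt strain was OR74A, and os2 was the point mutant UCLA 80A, which is in an SL4 background, so that the strains can differ at loci other than os-2. Conidia of both strains were germinated for 5 hr at 30°C in Vogel's medium with 0.05% glucose. They were then collected after 1 hr more at 30°C, after 2 hr of HS, or after 2 hr of DS. Polyadenylated RNA gave 1 library for each strain and condition, 6 in all, so every comparison below sets 1 library against 1 other, has no replicate check and carries no test. None of the 6 libraries had 2-DG at 30°C, so an effect of 2-DG alone cannot be told apart from that of 2-DG with heat. The controls were also collected 1 hr earlier than the stressed cells, so the DS/30 and HS/30 ratios hold that difference in age. Fewer cells with a transcript and less of it per cell cannot be told apart in such bulk RNA.

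The FPKM columns summed to between 426267 (os2 HS) and 899576 (wt DS), and their medians over genes above 0 ran from 13.5 to 15.4 FPKM. From the lowest values of each column, 1 fragment on a gene of 1000 bases was estimated to be worth 0.0753 to 0.132 FPKM. Of the 33 genes, 6 in wt and 7 in os2 stood on fewer than 10 estimated fragments at 30°C and 2 did so in os2 HS, whereas none did in the other 3 libraries. Transcripts of os-2 itself (NCU07024) had 113, 65.1 and 67.1 FPKM in wt (30°C, HS, DS) against 34.3, 37.0 and 37.5 FPKM in os2. As deposited they were lower in os2 in each condition, and a point mutant can still make the transcript. Equal column totals shift log2 os2/wt in DS by about 0.89, after which os-2 was no longer lower in os2 DS. The median log2 os2/wt in DS over all genes was then 0.63. How the columns are scaled bears on every ratio. Equal column totals would shift each log2 HS/30 by about 0.41 (wt) and 0.77 (os2) and each DS/HS by about -0.73 and -0.18. Scaling by median ratio shifts no log2 ratio by more than 0.018 in size, and scaling to the same upper quartile by no more than 0.12. The wt DS total includes the 33 genes themselves, which held 13.1% of it.

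The 4 thresholds together were passed by 0.339% of all genes. Both wt thresholds were passed by 116 genes (1.19% of all genes), of which the 33 made up 28.4%, and both os2 thresholds by 230 genes (2.36%), of which they made up 14.3%. Of the 83 genes past the thresholds in wt alone, 26 passed DS/HS but not DS/30 in os2, 12 passed DS/30 but not DS/HS, and 45 passed neither. Of the 197 genes past them in os2 alone, 109 passed DS/30 but not DS/HS in wt, 5 the reverse, and 83 neither. Of the 4 thresholds taken singly, DS/30 was passed by 5.17% of all genes in wt and 5.11% in os2, and DS/HS by 16.2% in wt and 6.79% in os2.

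Together the 33 genes held 0.0850%, 2.67% and 13.1% of the summed FPKM of the wt libraries (30°C, HS, DS). They held 0.0799%, 1.14% and 7.43% of the os2 libraries. Hsp30 accounted for most of this, with 8.96% of the wt DS column and 5.70% of the os2 DS column, and the other 32 genes held 4.18% and 1.73%. The median level of the 33 genes was 12.8, 36.0 and 183 FPKM across wt 30°C, HS and DS, against 11.1, 21.7 and 83.1 FPKM in os2. The strains had similar medians at 30°C, and wt had the higher one in HS and in DS. In wt DS, 21 of the 33 genes exceeded 100 FPKM, a level passed by 11.3% of all genes, and 7 were among the 100 most abundant transcripts, against 5 in os2 DS and none at 30°C.

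**Figure D1:**
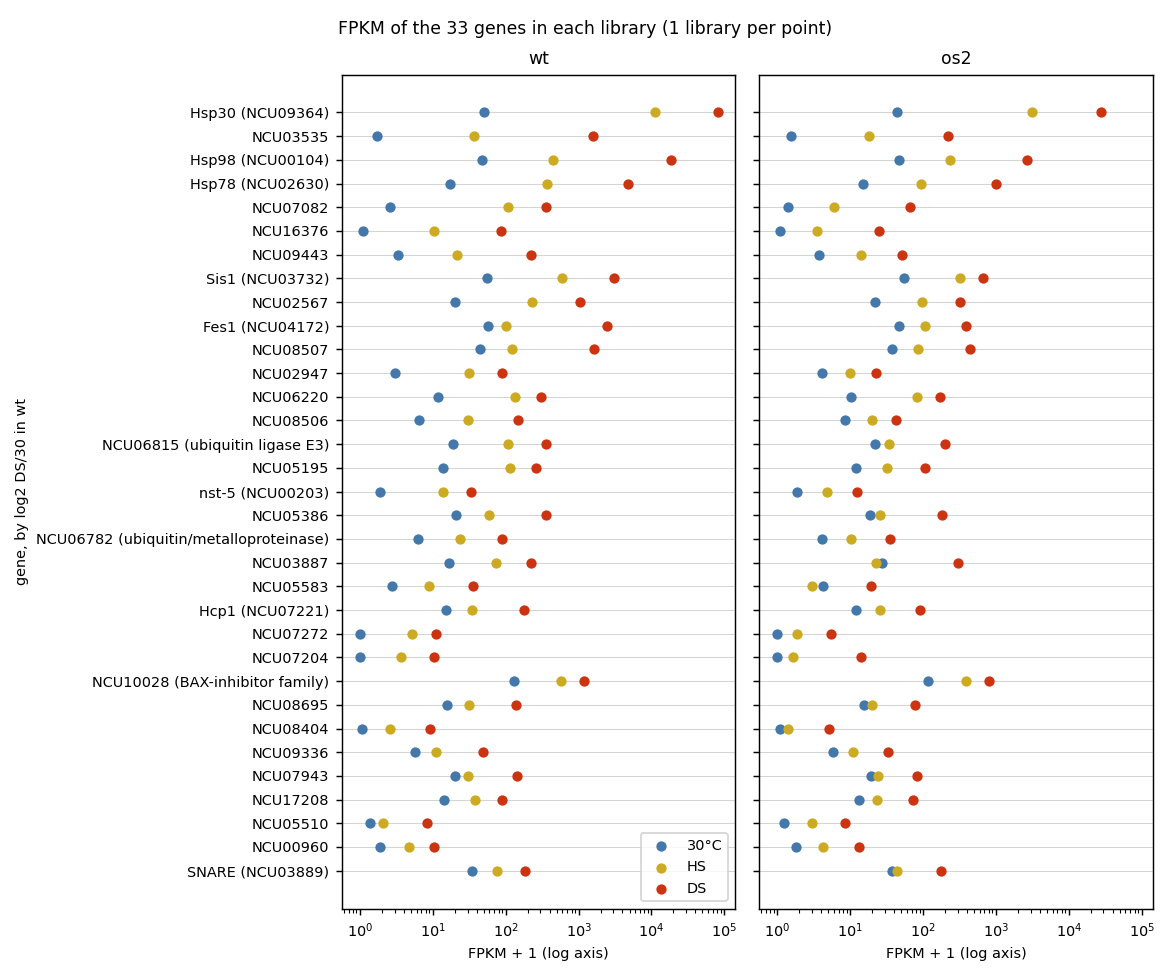
FPKM of the 33 genes in each of the 6 libraries, with 1 added and on a log axis, wt at left and os2 at right; each point is 1 library and genes are ordered by their wt DS/30 ratio. DS is the rightmost point of every row, as the rule requires, and Hsp30 reaches 80639 FPKM in wt and 27607 FPKM in os2.

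The levels of each gene are given in the order 30°C, HS and DS. In wt DS the 5 chaperones had the highest levels of the group. Hsp30 (NCU09364, chromosome I, 3586694 to 3588207 of assembly NC12), the small heat shock protein, had 49.9, 11079 and 80639 FPKM across wt 30°C, HS and DS, against 43.0, 3112 and 27607 FPKM in os2. It ranked first of all transcripts in both DS libraries, and its level in os2 DS lay above that in wt HS. Its log2 DS/30 came to 10.63 (wt) and 9.29 (os2) and its log2 DS/HS to 2.86 and 3.15, so that on the log2 scale most of its change was already present in HS in either strain.

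Hsp98 (NCU00104), the cytosolic disaggregase, had 46.5, 443 and 18575 FPKM in wt, against 45.6, 232 and 2721 FPKM in os2. Hsp78 (NCU02630), whose yeast counterpart is the disaggregase of the mitochondrial matrix, had 16.2, 371 and 4745 FPKM in wt, against 14.0, 92.6 and 996 FPKM in os2. Both disaggregases had nearly the same level in the strains at 30°C and were several times higher in wt than in os2 in DS. The DS/HS step of Hsp98, at 5.39 in wt and 3.54 in os2 on the log2 scale, was larger than its HS/30 step of 3.23 and 2.32. For Hsp78 the DS/HS step measured 3.67 (wt) and 3.41 (os2), against an HS/30 step of 4.44 and 2.64.

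Sis1 (NCU03732), a J-protein that delivers substrates to Hsp70, had 54.6, 583 and 3038 FPKM in wt, against 53.9, 322 and 670 FPKM in os2. Fes1 (NCU04172), a nucleotide exchange factor of Hsp70, had 56.2, 99.6 and 2467 FPKM in wt, against 45.9, 106 and 392 FPKM in os2. Starting from like levels at 30°C, Sis1 was already well above control in HS, while Fes1 as deposited was less than 3-fold above control in HS in both strains and high in DS. Its log2 HS/30 came to 0.81 (wt) and 1.19 (os2), or 1.22 and 1.96 with equal column totals, and its log2 DS/HS to 4.62 and 1.87. The wt DS/HS is the third largest DS/HS ratio among the 33 genes. With equal column totals the os2 DS/HS of Sis1 was 0.87, below the limit of 1.

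The 5 chaperones were part of a list of 19 chaperones and co-chaperones from the study's tables, which were drawn up on these libraries and so are no independent evidence. Of the 19, 10 passed both wt thresholds (1.19% of all genes) and 5 passed both os2 thresholds (2.36%). These were the same 5 that passed all 4 (0.339%). The list had a median log2 DS/HS of 1.12 (wt) and 0.56 (os2), beside medians of -0.03 and 0.00 over all genes. Hsp90 (NCU04142), Hsp70 (NCU09602), the Hsp90 co-chaperone p23 (NCU01792) and mitochondrial Hsp60 (NCU01589) missed the rule through os2 DS/HS alone, which was 0.83, 0.60, 0.54 and 0.38 for these genes. Their wt DS/HS was 2.78, 3.28, 1.10 and 1.06.

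Hsp70 had 971, 2268 and 22066 FPKM in wt, against 913, 2724 and 4138 FPKM in os2. Hsp90 had 667, 2087 and 14294 FPKM in wt, against 663, 2462 and 4378 FPKM in os2. Both were above the wt level in os2 HS and well below it in os2 DS. The median DS/HS of the chaperone list with equal column totals was 0.39 in wt and 0.38 in os2. The gap between the strains in that median was thus not kept. The shifts of -0.73 (wt) and -0.18 (os2) apply to nearly all genes alike, however. The place of the list relative to all genes was therefore little changed in either strain. For Hsp70 and Hsp90 the gap in DS/HS was wider than the shifts of -0.73 (wt) and -0.18 (os2), and the wt value stayed higher. Of the 5 chaperones, DS/HS then was larger in wt for Hsp98 (4.66 against 3.36), Sis1 (1.65 against 0.87) and Fes1 (3.89 against 1.69). It was larger in os2 for Hsp30 (2.13 against 2.96) and Hsp78 (2.94 against 3.23).

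**Figure D2:**
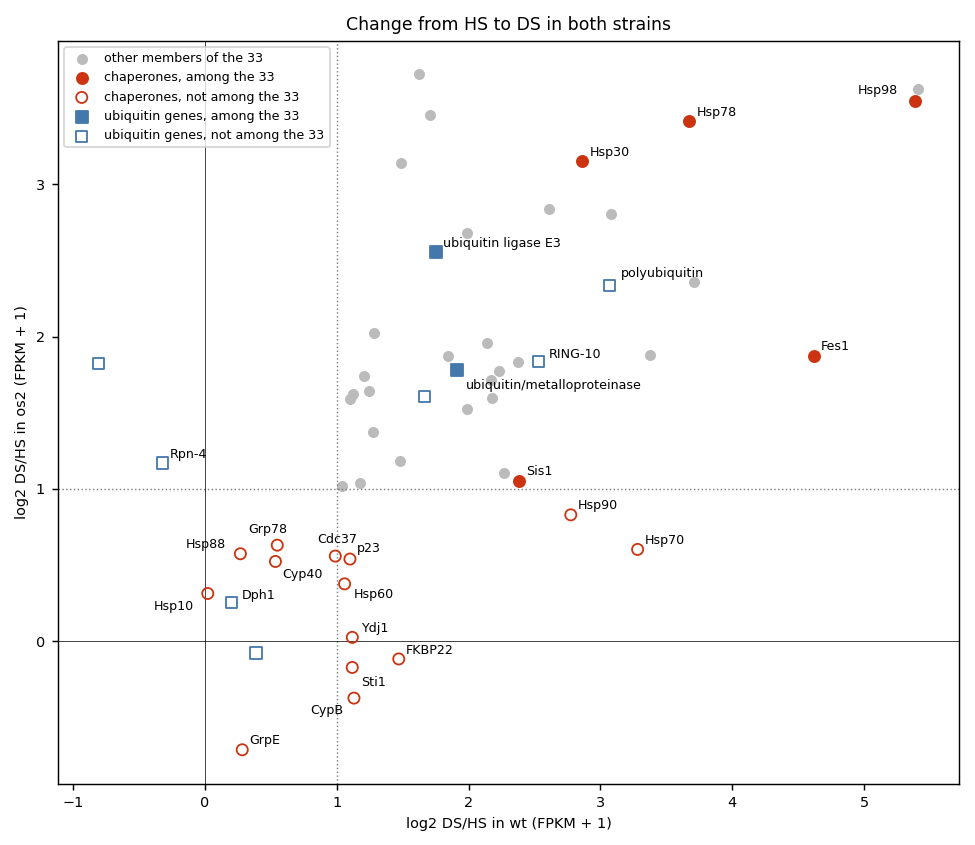
Log2 DS/HS in wt (horizontal axis) against os2 (vertical axis), 1 added to each FPKM, for the 33 genes and for the genes of the chaperone and ubiquitin lists; filled symbols are among the 33, open symbols are not, and dotted lines mark the limit of 1. Hsp90 and Hsp70 lie right of the vertical limit and below the horizontal one, with os2 values of 0.83 and 0.60.

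Of 9 ubiquitin genes in the study's tables, also drawn up on these libraries, 2 were among the 33 (0.339% of all genes). A ubiquitin ligase E3 (NCU06815), the class of enzyme that attaches ubiquitin to its targets, had 17.8, 107 and 362 FPKM in wt, against 21.1, 32.8 and 198 FPKM in os2. A gene annotated as ubiquitin/metalloproteinase (NCU06782) had 5.20, 22.8 and 88.6 FPKM in wt, against 3.12, 9.28 and 34.4 FPKM in os2. As deposited, the ligase was within 2-fold of its control level in os2 HS, though not with equal column totals (log2 HS/30 of 1.36), and was higher in os2 DS, with a log2 DS/HS of 2.55 in os2 and 1.75 in wt, while NCU06782 had 1.78 and 1.91.

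Polyubiquitin (NCU05995), the source of ubiquitin itself, had 658, 1044 and 8771 FPKM in wt, against 750, 531 and 2676 FPKM in os2. It missed the rule because its os2 DS/30 was 1.83. The same threshold was missed by RING-10 (NCU11215), with 1.88, and by the ubiquitin fusion degradation gene NCU05582, with 1.31. Equal column totals shift os2 DS/30 by about 0.59, which takes polyubiquitin and RING-10 past that limit. In all, 4 of the ubiquitin genes then passed the rule, among 23 of all 9730 genes. Rpn-4 (NCU01640), whose yeast counterpart is the transcription factor of proteasome genes, missed through wt DS/HS, which was -0.32. Of 30 genes with proteasome symbols, Rpn-4 among them, none was among the 33 (0.339% of all genes) or past both wt thresholds (1.19%). Both os2 thresholds were passed by 1, Rpn-4 itself (2.36% of all genes). The median log2 DS/HS of the 30 genes came to 0.48 (wt) and -0.05 (os2). On equal column totals that wt median was -0.24, of the opposite sign. The same scaling shifts the wt DS/HS of nearly all genes by about -0.73, so this sign does not place the 30 genes below other genes.

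Further named genes belong to membranes, signaling and chromatin. NCU10028, of the BAX-inhibitor family of membrane proteins linked to cell death in other organisms, had the highest control level of the group, with 128, 581 and 1198 FPKM in wt, against 115, 392 and 796 FPKM in os2. It lay just inside the rule, with a log2 DS/HS of 1.04 in wt and 1.02 in os2. With equal column totals it fell outside, at 0.31 and 0.84. The SNARE gene (NCU03889), of a family of proteins that drive membrane fusion, had 33.5, 74.3 and 183 FPKM in wt, against 37.0, 42.6 and 176 FPKM in os2. As deposited, its DS levels in the strains were nearly the same and its os2 HS level was close to control, while with equal column totals its os2 HS/30 was 0.96 and its os2/wt in DS 0.84.

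Hcp1 (NCU07221), a histidine kinase-response regulator, belongs to the class of sensors that feed the osmotic pathway of Os2. It had 14.2, 33.5 and 178 FPKM in wt, against 11.1, 24.7 and 90.4 FPKM in os2. The sirtuin gene nst-5 (NCU00203), of a family of NAD-dependent deacetylases, had 0.863, 12.9 and 32.6 FPKM in wt, against 0.854, 3.81 and 11.5 FPKM in os2. As deposited, Hcp1 had a larger DS/HS than HS/30 in either strain, whereas nst-5 had its larger step in HS in wt and steps of nearly equal size in os2. The HS/30 step was the larger one in os2 for both genes with equal column totals.

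The 11 named genes were more abundant than the 22 unnamed ones. Their median was 33.5 FPKM in wt at 30°C and 1198 FPKM in wt DS, against 3.56 and 140 FPKM for the unnamed genes, and in os2 DS the medians were 392 and 58.5 FPKM. The median DS/HS ratios lay closer together, at 2.37 for named and 1.99 for unnamed genes in wt and 1.87 and 1.82 in os2 on the log2 scale. The study named its genes on these libraries, which bears on that comparison.

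Among the unnamed genes, NCU03535 (chromosome II, 329641 to 331354) had the second largest DS/30 ratio in both strains. It had 0.730, 36.0 and 1572 FPKM in wt, against 0.578, 17.1 and 222 FPKM in os2, a log2 DS/HS of 5.41 in wt and 3.62 in os2. From under 1 FPKM it was thus among the 100 most abundant transcripts in wt DS. At 30°C NCU03535 stood on about 11.1 (wt) and 9.89 (os2) estimated fragments, so its fold over control is uncertain. In the annotation, 91.2% of its span lies within Cys3 (NCU03536), the sulfur regulator, and the strand used in counting is not given in the sources used here, so reads of the overlapping genes cannot be told apart. Cys3 itself had 66.6, 51.8 and 85.5 FPKM in wt, against 76.0, 64.4 and 76.7 FPKM in os2.

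NCU08507 had 42.8, 123 and 1612 FPKM in wt, against 37.1, 86.0 and 445 FPKM in os2. NCU02567 had 19.2, 229 and 1034 FPKM in wt, against 21.1, 95.9 and 318 FPKM in os2. The first was close to Fes1 in its course, with a modest HS level and a high DS level, and the second followed Sis1, with more of its log2 change in HS.

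NCU07082 had 1.56, 108 and 356 FPKM in wt, against 0.428, 5.13 and 66.3 FPKM in os2. The strains differed most at HS, where its log2 os2/wt of -4.16 was the lowest of the 33. NCU09443 had 2.39, 20.7 and 224 FPKM in wt, against 2.75, 13.1 and 50.7 FPKM in os2. NCU16376 had 0.109, 9.32 and 86.3 FPKM in wt, against 0.0972, 2.57 and 23.9 FPKM in os2, and at 30°C stood on about 1.06 estimated fragments in each strain. Its fold over control is thus very uncertain, although in DS its level was clear of the values at 30°C.

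NCU06220 had 10.7, 133 and 301 FPKM in wt, against 9.32, 83.0 and 172 FPKM in os2. Most of its change was in HS, with a log2 HS/30 of 3.51 and 3.02 and a log2 DS/HS of 1.18 and 1.04. NCU02947 had 2.08, 30.6 and 87.2 FPKM in wt, against 3.10, 8.91 and 21.5 FPKM in os2. NCU05195 had 12.8, 113 and 261 FPKM in wt, against 11.1, 31.4 and 107 FPKM in os2. In wt the HS/30 step of both was again the larger one, while NCU08506 as deposited had steps of nearly equal size in either strain. With equal column totals the HS/30 step of NCU08506 was the larger one, at 2.63 against 1.55 (wt) and 1.96 against 0.94 (os2). NCU08506 had 5.42, 29.8 and 147 FPKM in wt, against 7.57, 19.2 and 42.4 FPKM in os2.

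The opposite course was seen in NCU07943, with 19.4, 29.6 and 143 FPKM in wt, against 18.5, 23.6 and 83.1 FPKM in os2, and in NCU09336, with 4.73, 9.98 and 48.6 FPKM in wt, against 4.90, 10.1 and 32.6 FPKM in os2. As deposited these were the genes of the 33 whose log2 HS/30 was below 1 in both strains, but with equal column totals neither was, at 0.98 (wt) and 1.08 (os2) for NCU07943 and 1.29 and 1.61 for NCU09336. NCU08695 had 14.6, 30.5 and 138 FPKM in wt, against 14.4, 19.1 and 77.3 FPKM in os2. NCU05386 had 20.2, 58.2 and 361 FPKM in wt, against 17.8, 24.9 and 184 FPKM in os2. In os2 both were within 2-fold of control in HS as deposited, though not with equal column totals (log2 HS/30 of 1.12 and 1.21), and several times above it in DS.

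NCU03887 had 15.7, 71.6 and 223 FPKM in wt, against 26.3, 21.7 and 298 FPKM in os2. NCU05583 had 1.796, 7.90 and 34.3 FPKM in wt, against 3.21, 2.02 and 18.4 FPKM in os2. In these genes HS was above control in wt and below it in os2, and the os2 DS level came from the DS/HS step, at 3.72 and 2.68 on the log2 scale. With equal column totals, os2 HS was above control in both.

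The low end of the group held NCU00960, NCU05510, NCU07204, NCU07272 and NCU08404, none of which exceeded 13.4 FPKM in any library. NCU07272 had 4.17 and 10.1 FPKM in wt under HS and DS, against 0.854 and 4.58 FPKM in os2, and NCU07204 had 2.71 and 9.38 FPKM in wt and 0.631 and 13.4 FPKM in os2. Both are listed at 0 at 30°C in both strains, so no fold over control is given. NCU08404 had 0.0602, 1.59 and 8.30 FPKM in wt, against 0.108, 0.407 and 4.16 FPKM in os2, and at 30°C stood on 2.82 and 5.65 estimated fragments. These genes were detectable in DS in both strains, but their ratios rest on few fragments.

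NCU05510 had 0.398, 1.08 and 7.22 FPKM in wt, against 0.241, 2.01 and 7.68 FPKM in os2. NCU00960 had 0.909, 3.74 and 9.32 FPKM in wt, against 0.812, 3.25 and 12.1 FPKM in os2. Both reached at least the wt level in os2 DS. NCU17208 had 13.1, 37.2 and 89.3 FPKM in wt, against 12.3, 22.4 and 72.1 FPKM in os2.

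Heat shock alone was not a threshold of the rule but shares its libraries, so the HS/30 ratios are a description. In wt, 29 of the 33 genes had a log2 HS/30 of at least 1, as did 22.7% of all genes, and in os2 21 did, as did 12.9% of all genes. It was at least 1 in both strains for 19 of the 33, against 10.7% of all genes, in wt alone for 10, in os2 alone for Fes1 and NCU05510, and in neither for 2. None was at -1 or below. The median log2 HS/30 was 2.17 in wt (range 0.57 to 7.77) and 1.23 in os2 (range -0.48 to 6.15), and it was larger in wt for 31 of the 33, as it was for 48.3% of all genes. With equal column totals it was at least 1 in both strains for 26 of the 33 (21.6% of all genes) and in neither for 0, and it was larger in wt for 26 (35.5% of all genes).

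The DS/HS step had a median log2 of 1.99 in wt (1.04 to 5.41) and 1.87 in os2 (1.02 to 3.72), under a rule that sets the same limit in both strains. Gene by gene the wt value minus the os2 value ran from -2.09 to 2.74. It was larger in wt for 19 of the 33 (44.6% of all genes), but for 8 (32.6%) with equal column totals, where the medians were 1.42 (wt) and 1.69 (os2). As deposited it made up a median of 48.9% of the log2 DS/30 in wt and 61.1% in os2. It exceeded the HS/30 step in both strains for 13 genes, among them Hsp98, Fes1, NCU03535, NCU08507 and Hcp1, in os2 alone for 11, in wt alone for NCU08506 and NCU09443, and in neither for 7, among them Hsp30 and Sis1. These counts were 5, 9, 4 and 15 with equal column totals. The 5 were Hsp98, NCU05386, NCU07943, NCU08507 and NCU08695, while NCU03535 fell among the 15 and Fes1 and Hcp1 among the 4. The rule requires a log2 DS/HS of at least 1 and sets no limit on HS/30. These counts and the median percentages are therefore partly fixed by the rule, and they are given without a share over all genes.

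**Figure D3:**
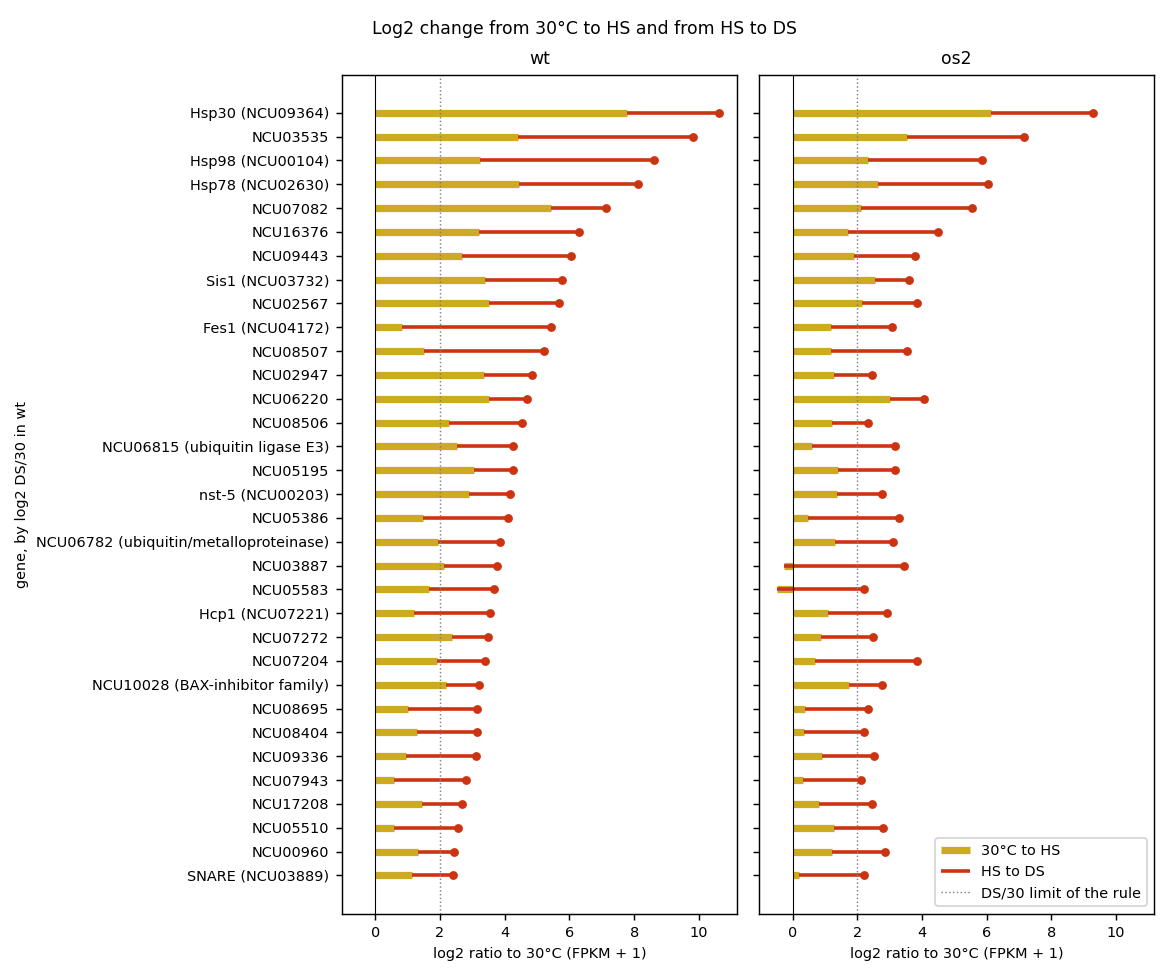
Log2 change of each of the 33 genes from 30°C to HS (thick bar) and from HS to DS (thin line ending in a point), 1 added to each FPKM, in wt at left and os2 at right; the dotted line is the DS/30 limit of 2. The HS bar is longer in wt for 31 of 33 genes (26 with equal column totals), and it points below 0 in os2 for NCU03887 (-0.26) and NCU05583 (-0.48), which equal column totals turn positive.

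At 30°C the strains had similar levels of these transcripts. The median log2 os2/wt was -0.03 (range -0.84 to 0.71), and none of the 33 was at 1 or above or at -1 or below, limits passed by 1.23% and 1.38% of all genes. Under HS the median was -0.93, with 30 of 33 genes lower in os2 (48.6% of all genes) and 16 at -1 or below (13.5% of all genes). In DS it was -0.99, with 29 genes lower in os2 (47.4% of all genes), 16 at -1 or below (12.4%) and none at 1 or above (7.08%). Equal column totals moved this DS split to 21 lower and 12 higher in os2, with 8 at -1 or below and 3 at 1 or above, while 2.97% and 34.0% of all genes then passed those limits. The median of the 33 was then -0.21, against 0.63 over all genes.

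The lowest os2/wt ratios in DS were -2.82 for NCU03535, -2.77 for Hsp98, -2.65 for Fes1, -2.41 for NCU07082 and -2.25 for Hsp78. At the other end stood NCU07204 with 0.47, NCU03887 with 0.42, NCU00960 with 0.35 and NCU05510 with 0.08, followed by SNARE with -0.05. Sis1, at -2.18, came next after Hsp78, while Hsp30, at -1.55, lay further up. The whole list of 19 chaperones had a median of -0.69. At the high end, NCU03887 and SNARE lie near each other on chromosome VI.

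The log2 DS/30 was larger in wt for 30 of the 33 genes (47.3% of all genes), by a median of 1.09. It was larger in wt by at least 1 for 17 genes (12.3% of all genes). The genes with the larger value in os2 were NCU07204, NCU05510 and NCU00960. With equal column totals it was larger in wt for 19 and in os2 for 14. Over all genes it was then larger in os2 for 75.1%. The median of wt minus os2 was then 0.19 for the 33 and -0.67 over all genes. The DS/30 ratios were part of the rule, which sets the same limits in the strains.

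**Figure D4:**
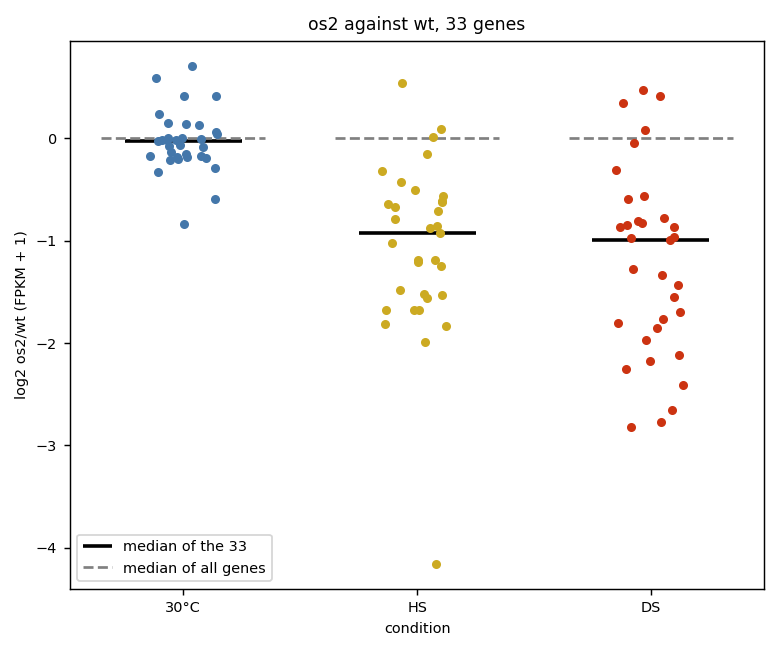
Log2 os2/wt of the 33 genes in each condition (30°C, HS, DS), 1 added to each FPKM; each point is 1 gene in 1 pair of libraries, black lines are medians of the 33 and dashed lines medians of all genes. The medians of the 33 are -0.03, -0.93 and -0.99, and the sideways spread of points within a condition has no meaning.

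The other lists are short, while 0.339% of all genes were among the 33, 1.19% passed both wt thresholds and 2.36% both os2 thresholds. A count of 0 in such a list is thus no finding about it. Among genes with hsp symbols, which overlap the chaperone list, 3 of 10 were among the 33, with 7 past both wt thresholds and 3 past both os2 thresholds. Of the study's other categories, also chosen on these libraries, cell death gave 1 of 4 (NCU10028) and signaling 1 of 10 (Hcp1). None came from 9 oxidative stress genes, 10 detoxification genes, 11 genes of autophagy and vacuoles or 5 fermentation genes. The autophagy and vacuole genes had 0 of 11 past both wt thresholds and 6 past both os2 thresholds, and a median log2 DS/HS of -0.72 in wt and 1.72 in os2. None of 14 vacuolar ATPase, 7 cytosolic ribosomal protein or 29 complex I genes was among the 33 or past both thresholds of either strain.

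On the chromosomes the 33 genes were spread over all 7, with 8 on chromosome II, which holds 10.6% of all genes and 24.2% of these. Of close pairs, 3 had at most 3 genes between them. NCU08507 (3426155 to 3427585) and NCU08506 (3427799 to 3428860) are direct neighbours on chromosome II, 213 bases apart. NCU16376 and Hsp30 on chromosome I have NCU09365 between them, and NCU03887 and SNARE on chromosome VI have NCU03888 between them.

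Both genes in between met part of the rule. NCU09365 had 1.76, 20.3 and 40.8 FPKM in wt, against 2.10, 6.35 and 17.2 FPKM in os2, and missed the rule through a wt DS/HS of 0.97. NCU03888 had 65.6, 90.4 and 133 FPKM in wt, against 57.6, 36.9 and 176 FPKM in os2, a log2 DS/HS of 0.56 in wt and 2.22 in os2. The median gene length was 1896 bases for the 33 genes and 2129 bases for all genes.

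The annotated spans of 11 of the 33 genes (33.3%, against 23.7% of all genes) overlap another gene. Besides NCU03535 in Cys3, 98.7% of nst-5 lies within NCU00204 and 99.9% of NCU17208 within NCU06149. NCU00204 had 32.6, 51.6 and 52.3 FPKM in wt, against 32.4, 56.9 and 64.5 FPKM in os2, unlike nst-5. NCU06149 had 15.6, 59.0 and 105 FPKM in wt, against 15.7, 37.4 and 88.6 FPKM in os2, within 2-fold of the levels of NCU17208 in every library, and their reads cannot be told apart. In the other 8 genes the overlaps covered 0.621% to 40.2% of the span, and for Hsp30 147 bases.

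Of the genes just inside the rule, NCU10028, NCU06220 and Sis1 had an os2 DS/HS of 1.02, 1.04 and 1.06. Of those just outside, NCU09365 and NCU16713 had a wt DS/HS of 0.97 and 0.94, and a second BAX-inhibitor family gene, NCU02463, had an os2 DS/HS of 0.95. NCU02463 had 33.0, 117 and 399 FPKM in wt, against 37.1, 129 and 249.6 FPKM in os2. The limits of the rule therefore part genes with nearly the same values.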

How the data were processed

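RNAseq of polyadenylated RNA was made for 6 samples, wt and os2 at 30°C, HS and DS, grouped as labelled. According to the study's methods and the submitters' processing notes, the authors used CASAVA 1.8.2, FastQC, TopHat with the 74a_12 reference genome, and Cufflinks, and deposited FPKM values per gene. Versions of the other tools are not given in the sources used here, nor is a scaling between columns. The authors' ratios from Cuffdiff were not used. All 6 columns were mapped to samples by name. The table's 1 row lacking an identifier was not used.

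Log2 ratios were taken with 1 added to each FPKM, which understates the change of low genes. The members and gene lists were chosen with earlier results of these data known. Named genes were members with a RefSeq symbol or a name in the study's tables, those highest in DS, with the largest or smallest ratios, or nearest to the limits, and the chaperone and ubiquitin lists, which gave 28 of the 33. The other 5 members, and genes that neighbour or overlap members, were named after their values were seen. The lists were chaperones, ubiquitin genes, oxidative stress, cell death, detoxification, signaling, autophagy and vacuoles, fermentation, and, by symbol, proteasome, hsp, vacuolar ATPase, cytosolic ribosomal proteins and complex I.

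Positions and symbols came from RefSeq's table of assembly NC12, which matched 9729 identifiers. To estimate fragments, FPKM was multiplied by gene length and divided by the 5th percentile of that product in the same column, taken over genes under 0.2 FPKM with a product above 60. The study's methods give read totals per library, but fragments per gene are known only through this estimate, so no counting interval is given. The calculations were tested on simulated data and used Python 3.11.15, numpy 2.4.6, pandas 2.3.3 and matplotlib 3.10.9. Alternatives were 3 scalings of the columns, 0.1, 5 or nothing added, a mean FPKM of at least 1 or 10, thresholds moved by 0.5, and members without overlapping genes.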

Additional observations from a re-analysis of the deposited data

Results flagged for a closer look

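In NCU03887 the HS library was above control in wt, with a log2 HS/30 of 2.12, and below it in os2, with -0.26. In NCU05583 the same ratios were 1.67 and -0.48. These genes drew attention because the strains moved in opposite directions under the same contrast. Each ratio compares 1 library with 1 other, and the difference between the strains was not tested. With equal column totals the os2 values were 0.48 and 0.0795, so the opposite direction was not kept. The wt values were then 2.52 and 1.99, still higher than in os2. That scaling raises the os2 HS/30 of nearly all genes by about 0.77, so the change of sign is not particular to these genes.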

How the results depend on the processing

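The number of members was 33 as deposited, 33 with columns scaled by median ratio or filtered at a mean FPKM of 1, 30 with the same upper quartile, 28 when filtered at a mean FPKM of 10, 23 with the same total (19 of the 33), 22 with 5 added, 56 with nothing added, and 81 with 0.1 added. Of the 48 genes that 0.1 added, 43 stayed under 10 FPKM in every library. With thresholds raised by 0.5 there were 17 members, 53 genes past both wt thresholds and 91 past both os2 thresholds, and with thresholds lowered by 0.5 there were 96, 239 and 571. Genes past both wt thresholds numbered 268 with 0.1 added, 56 with 5 added, 65 when filtered at 10 and 54 with the same total, and those past both os2 thresholds 424 with 0.1 added and 114 with 5 added. The median wt DS/30 was 4.80 with 0.1 added and 4.76 with nothing added. With 5 added the median wt HS/30 was 1.49, and 11 members had a log2 HS/30 of at least 1 in both strains. Among members with no annotated overlap, an alternative chosen after seeing the data, 12 of 22 did, a smaller count by construction.

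Scaling to the same total shifts each log2 ratio by a near constant amount, for example -0.73 in wt DS/HS and 0.89 in os2/wt DS. Of the 14 members then lost, 12 missed wt DS/HS and 4 missed os2 DS/HS. Sis1 and NCU08506 missed os2 DS/HS alone, and NCU06220 and NCU10028 missed both. Those that missed wt DS/HS alone were nst-5, NCU00960, NCU02947, NCU03887, SNARE, NCU05195, NCU07082, NCU07204, NCU07272 and NCU17208. The median os2 HS/30 of the members was then 1.95 and the median os2/wt DS -0.21, with 8 genes at -1 or below. The median wt DS/HS was 0.39 for chaperones, 0.95 for ubiquitin genes, of which 4 were members, and -0.24 for proteasome symbols, which reversed. The os2 HS/30 of NCU03887 (0.48) and NCU05583 (0.0795) changed sign. So did os2/wt DS of SNARE (0.84), NCU06220 (0.0822), the ubiquitin ligase E3 (0.0206), NCU07943 (0.11), NCU08695 (0.0606), NCU09336 (0.31), NCU10028 of the BAX-inhibitor family (0.30) and NCU17208 (0.58). With the same upper quartile SNARE changed sign too (0.0016). Of the other values for single genes, 661 moved little and 99 moved further without changing sign.

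No paired analysis was possible because each group has 1 library, and leaving a library out would remove its condition. The promoter motif counts were not run. With 1 library per condition, biological variation was not measured, and members under 10 FPKM are limited by depth.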
